A study of Mus musculus with 2 samples.

Results

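The genes described here encode the subunits of respiratory complexes I, II, III and V, measured by RNA sequencing in mouse satellite cells, the stem cells of skeletal muscle. Members were found by gene symbol. Protein-coding genes entered when the symbol began with Nduf plus a, b, c, s or v and a digit, with Uqcr or with Atp5, when it was Cyc1 or Sdha, Sdhb, Sdhc or Sdhd, or when it was a mitochondrial Nd, Cytb or Atp gene. That gave 77 of the 16190 genes in the deposited count table, 67 of them in the nucleus and 10 in the mitochondrial genome. Complex IV (cytochrome oxidase) is not among them, and its mitochondrial genes appear only as neighbours.

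The study sequenced 1 library from each of 2 groups, both of C57BL/6 satellite cells taken from the tibialis anterior muscle. Cipc scko mice (genotype Cipc-scko, sample title Cipc-/-) carry a satellite cell deletion of Cipc, which encodes the CLOCK-interacting pacemaker protein, a repressor of the circadian clock. Cipc flox/flox mice (genotype Cipc-flox/flox, title Cipc+/+) carry the floxed gene. The series title speaks of mdx mice, which lack dystrophin, but neither sample's labels name an mdx allele. The Cre driver, the age and the number of animals in a library are not stated in the sources used here. With 1 library a group there is no replicate check. No p-value is given, and each interval covers counting error in these 2 libraries and nothing else.

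The libraries held 16830168 counts in Cipc scko cells against 16145870 in Cipc flox/flox cells. Cipc itself had 594 counts in Cipc scko cells against 1907 in Cipc flox/flox cells, a log2 ratio of -1.61 (-1.74 to -1.47). The libraries differed in several ways that the labels do not mention. The satellite cell gene Pax7 stood at 62.2 CPM (counts scaled by TMM to a common library size) in Cipc scko cells against 2.54 CPM in Cipc flox/flox cells, and Myod1, the myoblast regulator, at 1192 CPM in Cipc scko cells against 113 CPM in Cipc flox/flox cells. By the 2-fold rule given below, those were the 2 of 7 satellite cell and myoblast markers called higher (28.6%, against 21.2% of all genes). None was called lower, against 15.9% of all genes. Of the other 5, Vcam1 stood at 0.99 in log2, Cdh15 at 0.36, Itga7 at 0.33 and Myf5 at 0.10, while Sdc4 had 1799 counts in Cipc scko cells against 2985 in Cipc flox/flox cells (-0.65). The 9 differentiated muscle markers summed to 263445 counts in Cipc scko cells against 282 in Cipc flox/flox cells. All 8 of those that passed the count filter were called higher, against 21.2% of all genes, and Myh1, Myh2 and Myh7 were at 0 in Cipc flox/flox. A marker at 0 in one library could pass that filter only through the other, so its call was fixed by passing. The 4 fibro-adipogenic markers summed to 423 CPM in Cipc scko cells against 1279 CPM in Cipc flox/flox cells. Their log2 ratios ran from -6.51 to -0.18 with a median of -4.57. Of the 4, 3 were called lower, against 15.9% of all genes. Among 4 macrophage markers 2 were measured and went opposite ways: Cd68 had 30 counts in Cipc scko cells against 425 in Cipc flox/flox cells, and Csf1r had 37 in Cipc scko cells against 9 in Cipc flox/flox cells. Of 4 endothelial markers, which summed to 132 counts in Cipc scko cells against 15 in Cipc flox/flox cells, only 1 passed the count filter. It was called higher, at 5.56 in log2. Of the others, Pecam1 was at 0 in Cipc flox/flox and Tek at 0 in Cipc scko. Xist, transcribed from an inactive X, had 4 counts in Cipc scko cells against 3898 in Cipc flox/flox cells, while the Y-linked Ddx3y had 511 in Cipc scko cells against 0 in Cipc flox/flox cells. What part these differences have in the values below was not tested, and genotype, cell state and sex cannot be told apart with 1 library each. In bulk RNA, fewer cells of a type and less RNA per cell cannot be told apart either.

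The respiratory chain sits in the inner mitochondrial membrane. Complex I takes electrons from NADH and complex II takes them from succinate. Both pass them to ubiquinone, from which complex III hands them to cytochrome c. Complexes I and III pump protons as they work, and complex V, the ATP synthase, lets protons flow back through its membrane rotor to make ATP. The subunits come from both genomes except in complex II, which is wholly nuclear, and differentiating muscle cells are known to build up this machinery.

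Most nuclear members stood above equality and most mitochondrial ones below it. A gene was called higher or lower at a fold of at least 2 with a counting interval that excluded equality. By that rule 3 of 67 nuclear members were higher in Cipc scko cells and 1 was lower; of all 12874 genes past the count filter 21.2% were higher, 15.9% were lower and 37.2% were called in either direction. Of the 10 mitochondrial members 0 were higher and 4 were lower. All 77 members passed the filter. The median log2 ratio (Cipc scko over Cipc flox/flox cells) was 0.42 for nuclear members (quartiles 0.05 and 0.61) and -0.68 for mitochondrial members (quartiles -1.10 and -0.28), against 0.01 for all genes (quartiles -0.62 and 0.78). The 2 member medians lay 1.10 apart.

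Most nuclear members lay above 0, and most lay within 0.5 of equality in log2, on one side or the other. Of the 67, 54 lay above 0, against 50.3% of all genes, and 45 had an interval wholly above equality, against 41.5% of all genes. A further 7 had an interval wholly below equality, against 41.4% of all genes. Of their ratios 44 of 67 (65.7%) lay within 0.5 of equality in log2, against 39.2% of all genes and 47.8% of the 4508 genes with a mean of at least 50 CPM. Of those well-expressed genes 26.8% were called (13.6% higher, 13.2% lower), 45.8% lay above 0, and 40.8% and 48.9% had intervals wholly above and wholly below equality. Scaling by library totals instead of TMM shifted the median of all genes by -0.14, and 47 of 67 nuclear members then lay above 0 with a median of 0.28. Summed over all 67, the nuclear members took 1.19% of the counts in Cipc scko cells against 1.20% in Cipc flox/flox cells. The 10 mitochondrial members took 0.826% in Cipc scko cells against 1.56% in Cipc flox/flox cells. Among members there were thus 0.693 mitochondrial counts for each nuclear one in Cipc scko cells against 1.29 in Cipc flox/flox cells. Of the mitochondrial member counts, mt-Atp6 held 5413 of 139090 in Cipc scko cells against 52118 of 251377 in Cipc flox/flox cells. The other 9 took 0.794% of all counts in Cipc scko cells against 1.23% in Cipc flox/flox cells. The ratio of mitochondrial to nuclear counts leaves out the mitochondrial complex IV genes. With them, all 13 mitochondrial genes took 2.93% of the counts in Cipc scko cells against 3.39% in Cipc flox/flox cells.

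**Figure D1:**
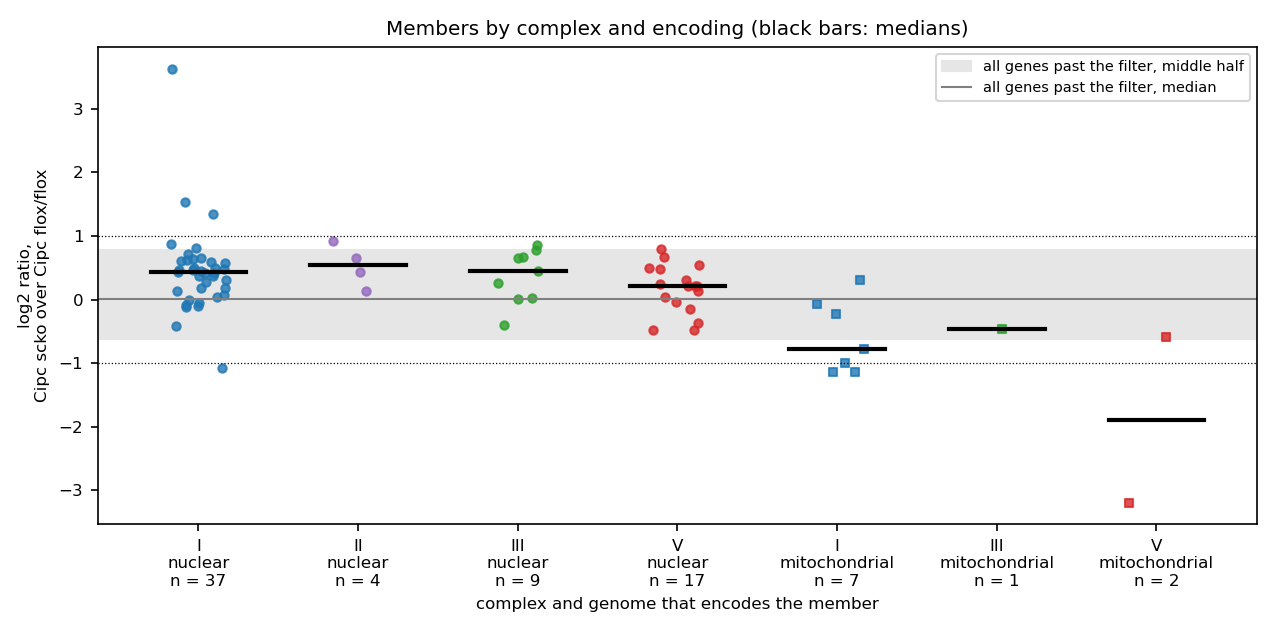
Log2 ratio, Cipc scko over Cipc flox/flox cells, on the y axis for each of the 77 members, grouped on the x axis by complex and encoding genome. Black bars are group medians, dotted lines the 2-fold limit, and the grey band runs between the quartiles of all genes (-0.62 to 0.78): the nuclear groups sit at medians of 0.21 to 0.54 and the mitochondrial ones below 0.

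By complex, the nuclear medians were 0.44 for complex I (37 genes), 0.54 for complex II (4), 0.45 for complex III (9) and 0.21 for complex V (17). The log2 ratios of the summed counts were 0.35 for complex I, 0.50 for complex II and 0.35 for complex III. For complex V the sum was -0.12, the opposite sign from its median. Atp5b alone held 36575 of the 94439 counts of complex V in Cipc scko cells against 53465 of 107896 in Cipc flox/flox cells. All complex sums and medians kept these signs under the other scalings tried.

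**Figure D2:**
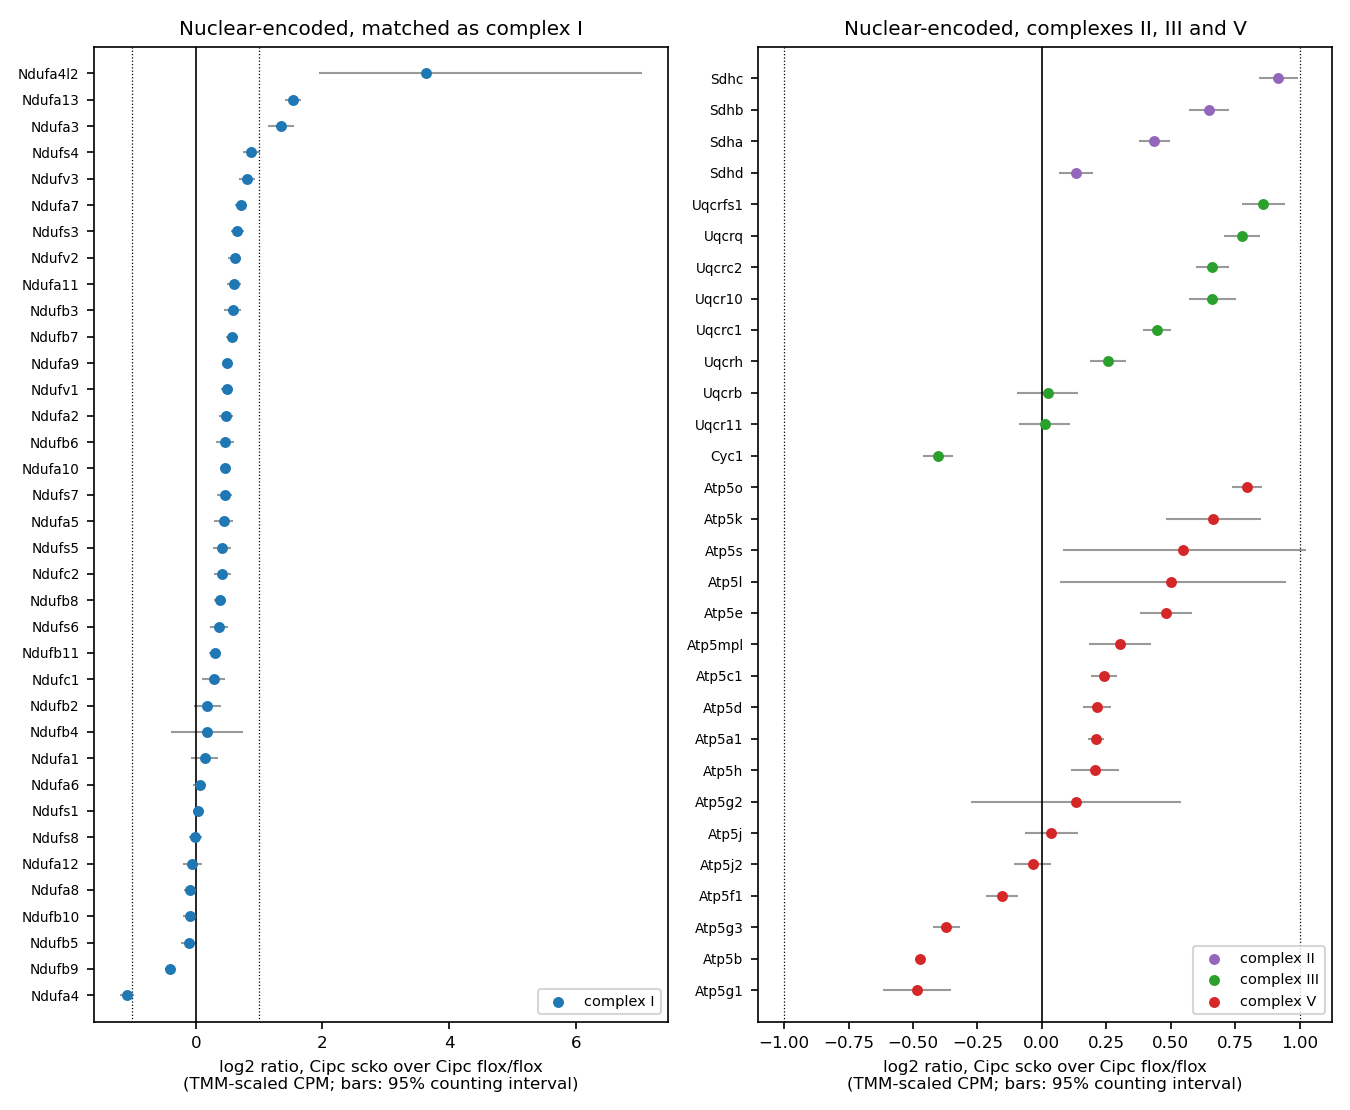
Log2 ratio, Cipc scko over Cipc flox/flox cells, on the x axis (a separate scale in each panel) for 66 of the 67 nuclear members, one row per gene, with 95% counting intervals as bars and the 2-fold limits dotted. Ndufa13, Ndufa3 and Ndufa4l2 lie beyond the limit on the higher side and Ndufa4 on the lower side.

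Complex I was read by its arms. The matrix arm carries the flavin and the iron-sulfur clusters, and the membrane arm the proton channels. None of the 16 nuclear matrix arm genes was called; they ranged from -0.06 (Ndufa12) to 0.88 (Ndufs4) with a median of 0.48. Its 7 core subunits, conserved from bacteria, had a median of 0.49. Ndufs3 (0.66), Ndufv2 (0.62), the NADH-binding Ndufv1 (0.49) and Ndufs7 (0.45) had intervals wholly above equality. Ndufs1, which carries several iron-sulfur clusters, had 1935 counts in Cipc scko cells against 1980 in Cipc flox/flox cells, a log2 ratio of 0.04 (-0.05 to 0.13). Ndufs8, which carries another pair of clusters, had 1692 counts in Cipc scko cells against 1789 in Cipc flox/flox cells, a log2 ratio of -0.004 (-0.10 to 0.09). The 9 accessory genes of this arm are Ndufs4, Ndufs6, Ndufv3, Ndufa2, Ndufa5, Ndufa6, Ndufa7, Ndufa9 and Ndufa12. Ndufs4, a late-assembling subunit, had 1202 counts in Cipc scko cells against 690 in Cipc flox/flox cells, a log2 ratio of 0.88 (0.74 to 1.01), and Ndufv3 followed at 0.82.

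Both structural subunits called higher belong to the membrane arm. Ndufa13, also known as GRIM-19, had 1922 counts in Cipc scko cells against 699 in Cipc flox/flox cells and levels of 119.7 CPM in Cipc scko cells against 41.3 CPM in Cipc flox/flox cells. That is a log2 ratio of 1.53 (1.41 to 1.66), or 2.90-fold. Of its exon bases 29.98% overlap Tssk6 on the other strand, a kinase gene with 4 counts in Cipc scko cells against 0 in Cipc flox/flox cells. Whether counting used strand is not stated, so reads in the overlap cannot be assigned. Ndufa3, a small single-span subunit, had 684 counts in Cipc scko cells against 283 in Cipc flox/flox cells, a log2 ratio of 1.35 (1.15 to 1.55), or 2.55-fold. The other 17 of the 19 nuclear genes of this arm were not called, and the median of the arm was 0.38. They ran from -0.41 for Ndufb9 (2367 counts in Cipc scko cells, 3322 in Cipc flox/flox cells) to 0.60 for Ndufa11. Between them lay Ndufb5, Ndufb10, Ndufa8, Ndufa1, Ndufb4, Ndufb2, Ndufc1, Ndufb11, Ndufb8, Ndufc2, Ndufs5, Ndufa10, Ndufb6, Ndufb7 and Ndufb3. Ndufab1, the acyl carrier protein of the complex, is outside the naming rule; it had 371 counts in Cipc scko cells against 379 in Cipc flox/flox cells, a log2 ratio of 0.05. Exons that overlap a counted gene by over 10% also occur in Ndufb6 (39.0%, Smim27), Ndufb11 (12.9%, Rbm10), Atp5j (12.7%, Gabpa), Ndufb5 (12.3%, Mrpl47) and Ndufa2 (11.5%, Tmco6).

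The largest ratios in each direction among nuclear members belonged to the Ndufa4 pair, which bear complex I names but are not structural subunits of it. Ndufa4 is now assigned to cytochrome oxidase. It had 1034 counts in Cipc scko cells against 2308 in Cipc flox/flox cells, and levels of 64.4 CPM in Cipc scko cells against 136.4 CPM in Cipc flox/flox cells. Its log2 ratio was -1.08 (-1.19 to -0.98), and it was the sole nuclear member called lower. Ndufa4l2, its paralogue and a gene known to be induced by hypoxia, had 29 counts in Cipc scko cells against 2 in Cipc flox/flox cells. Its log2 ratio was 3.63 with a wide interval of 1.95 to 7.05. With so few counts the value depends on the constant added: it was 2.32 with a prior count of 5, and 3.05 and 1.31 from FPKM with 0.1 and 1 added. It is left out by a filter of 5 CPM, under which 2 nuclear members were called higher. In the pooled counts of the pair Ndufa4l2 made up 2.73% in Cipc scko (exact binomial 1.83 to 3.89%) and 0.0866% in Cipc flox/flox (0.0105 to 0.312%). Ndufa4 made up nearly the whole pair in both libraries, and the summed pair stood at -1.04 in log2.

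Complex II, succinate dehydrogenase, also serves in the citric acid cycle, and its 4 genes all lay above equality with no call, except that Sdhd stood at -0.003 by library totals. Sdha, the flavoprotein, had 5393 counts in Cipc scko cells against 4200 in Cipc flox/flox cells, a log2 ratio of 0.44 (0.38 to 0.50). Sdhb, the iron-sulfur protein, had 3459 counts in Cipc scko cells against 2327 in Cipc flox/flox cells, a log2 ratio of 0.65 (0.57 to 0.72). The membrane anchors were the farthest apart. Sdhc had 3982 counts in Cipc scko cells against 2222 in Cipc flox/flox cells, a log2 ratio of 0.92 (0.84 to 0.99), the closest uncalled nuclear member to the 2-fold limit. Sdhd had 3803 counts in Cipc scko cells against 3657 in Cipc flox/flox cells, a log2 ratio of 0.13 (0.07 to 0.20).

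Complex III passes electrons through cytochrome b, the Rieske iron-sulfur protein and cytochrome c1. Its nuclear redox subunits stood on opposite sides of equality. Uqcrfs1, the Rieske protein, had 3090 counts in Cipc scko cells against 1796 in Cipc flox/flox cells, a log2 ratio of 0.86 (0.77 to 0.94). Cyc1, the cytochrome, had 4093 counts in Cipc scko cells against 5704 in Cipc flox/flox cells, a log2 ratio of -0.40 (-0.46 to -0.34). The 2 core proteins, Uqcrc1 and Uqcrc2, stood at 0.45 and 0.66. Of the 5 small subunits, Uqcrq (0.78), Uqcr10 (0.66) and Uqcrh (0.26) had intervals above equality. Uqcrb and Uqcr11 lay at 0.02 and 0.01 with intervals that spanned it.

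Complex V has a catalytic F1 head, a membrane rotor of c subunits and a peripheral stalk that holds the head still. In the head Atp5b, the catalytic beta subunit, went against the other 4. It had 36575 counts in Cipc scko cells against 53465 in Cipc flox/flox cells, a log2 ratio of -0.47 (-0.49 to -0.45). Atp5a1, the alpha subunit, had 18655 counts in Cipc scko cells against 16996 in Cipc flox/flox cells, a log2 ratio of 0.21 (0.18 to 0.24). Atp5c1 (0.24), Atp5d (0.22) and Atp5e (0.48) are the central stalk subunits gamma, delta and epsilon, and all lay above equality. Neither alpha nor beta reached the 2-fold limit.

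The c subunit of the rotor is made by 3 genes that encode the same mature protein with different import sequences. Atp5g3 had 5009 counts in Cipc scko cells against 6828 in Cipc flox/flox cells, and Atp5g1 had 802 in Cipc scko cells against 1183 in Cipc flox/flox cells. Both stood below equality, at -0.37 and -0.48, while Atp5g2, with 106 counts in Cipc scko cells against 102 in Cipc flox/flox cells, stood at 0.13 (-0.27 to 0.54). The split among the 3 was nearly the same in both libraries. Atp5g3 gave 84.7% of their counts in Cipc scko (83.7 to 85.6%) and 84.2% in Cipc flox/flox (83.3 to 84.9%). The 3 together stood at -0.38 in log2 (-0.43 to -0.33).

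The stalk was uneven. Atp5o, the subunit that joins the stalk to the head, had 6506 counts in Cipc scko cells against 3950 in Cipc flox/flox cells, a log2 ratio of 0.80 (0.74 to 0.85). Atp5f1, the b subunit that spans the stalk, had 3687 counts in Cipc scko cells against 4328 in Cipc flox/flox cells, a log2 ratio of -0.15 (-0.22 to -0.09). Atp5h stood at 0.21 and Atp5j at 0.04. The remaining membrane subunits, Atp5k (0.66), Atp5l (0.50), Atp5mpl (0.30) and Atp5j2 (-0.04), are small proteins, some of which help join ATP synthases into dimers. Atp5s, a coupling factor outside the enzyme proper, had 93 counts in Cipc scko cells against 67 in Cipc flox/flox cells and stood at 0.55 (0.08 to 1.02). Atpif1, the inhibitor that blocks ATP breakdown by the enzyme, is outside the naming rule. It had 1853 counts in Cipc scko cells against 1564 in Cipc flox/flox cells, a log2 ratio of 0.32 (0.22 to 0.42).

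Just inside the 2-fold limit among nuclear members lay Ndufa4 at -1.08, and just outside it Sdhc (0.92), Ndufs4 (0.88), Uqcrfs1 (0.86), Ndufv3 (0.82), Atp5o (0.80), Uqcrq (0.78) and Ndufa7 (0.71). At a limit of 1.5-fold 19 of 67 nuclear members (28.4%) would be called higher, near the 29.0% of all genes, and 1 would be called lower, against 25.8% of all genes. At 4-fold Ndufa4l2 alone would be called higher, against 12.5% of all genes, and no nuclear member lower, against 6.68%.

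Levels between genes were compared per length, in the authors' deposited FPKM. The nuclear members had a median of 51.8 FPKM in Cipc scko cells against 46.3 FPKM in Cipc flox/flox cells. Atp5b was the highest in both libraries, at 314 FPKM in Cipc scko cells against 479 FPKM in Cipc flox/flox cells. Next in Cipc scko cells came Ndufb9 with 216 FPKM, Atp5a1 with 210 FPKM, Cyc1 with 204 FPKM and Atp5mpl with 203 FPKM. The same 4 genes had 316, 200, 296 and 181 FPKM in Cipc flox/flox cells. Of these 5 nuclear messages 3, Atp5b, Ndufb9 and Cyc1, stood below equality. Ndufa4l2 was the lowest, at 1.79 FPKM in Cipc scko cells against 0.129 FPKM in Cipc flox/flox cells. Ndufb4 was the lowest structural subunit, at 2.36 FPKM in Cipc scko cells against 2.29 FPKM in Cipc flox/flox cells. The length that counts and FPKM imply is not the annotated exon length of each gene. The implied length was 0.0793 times that length for Atp5l and 2.46 times for Ndufb10, so the order of nuclear genes rests on the authors' lengths, whose definition is not stated. For the mitochondrial members the lengths were equal to the nearest base.

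**Figure D3:**
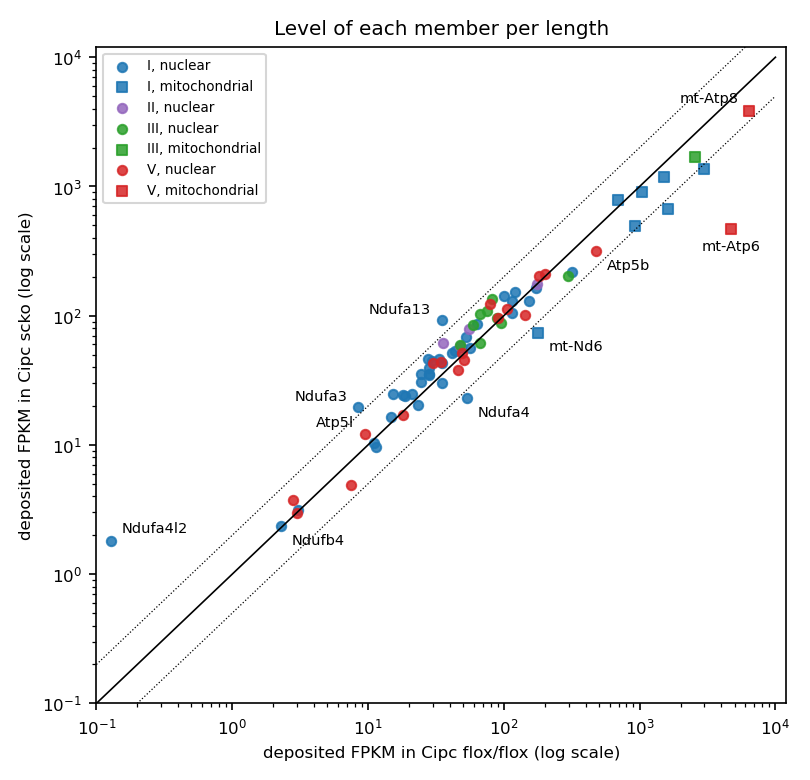
Deposited FPKM of each of the 77 members in Cipc scko (y axis) against Cipc flox/flox (x axis), both on log scales, with equality solid and 2-fold limits dotted. The mitochondrial members (squares), apart from mt-Nd6, are the most abundant, and all but mt-Nd5 lie below the line, with mt-Atp6 at 472 FPKM in Cipc scko cells against 4740 FPKM in Cipc flox/flox cells.

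The mitochondrial genome is read from both strands into long transcripts that are cut apart at tRNAs, and its 13 proteins all belong to the respiratory complexes. The 10 members ranged from 74.0 to 3818 FPKM in Cipc scko and from 179 to 6342 FPKM in Cipc flox/flox. Along the genome they did not move as a block. mt-Nd1 had 21934 counts in Cipc scko cells against 46329 in Cipc flox/flox cells, a log2 ratio of -1.002 (-1.03 to -0.98) that only just met the limit. mt-Nd2 had 11666 counts in Cipc scko cells against 27201 in Cipc flox/flox cells, a log2 ratio of -1.15 (-1.18 to -1.11). Both encode membrane arm subunits of complex I and both were called lower in Cipc scko.

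The other complex I genes of the same strand were closer to equality. mt-Nd3 had 2870 counts in Cipc scko cells against 5169 in Cipc flox/flox cells (-0.77, -0.84 to -0.71). mt-Nd4l had 5877 counts in Cipc scko cells against 7234 in Cipc flox/flox cells (-0.22), and mt-Nd4 had 20871 in Cipc scko cells against 23019 in Cipc flox/flox cells (-0.07). mt-Nd5 was the one mitochondrial member above equality, with 24200 counts in Cipc scko cells against 20558 in Cipc flox/flox cells, a log2 ratio of 0.31 (0.28 to 0.34). mt-Nd6, the sole protein gene on the other strand, had 646 counts in Cipc scko cells against 1498 in Cipc flox/flox cells and was lower, at -1.14 (-1.27 to -1.003). It shares 14 exon bases with mt-Nd5, its convergent neighbour. mt-Cytb, which encodes cytochrome b of complex III, had 32503 counts in Cipc scko cells against 47363 in Cipc flox/flox cells, a log2 ratio of -0.47 (-0.49 to -0.45).

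**Figure D4:**
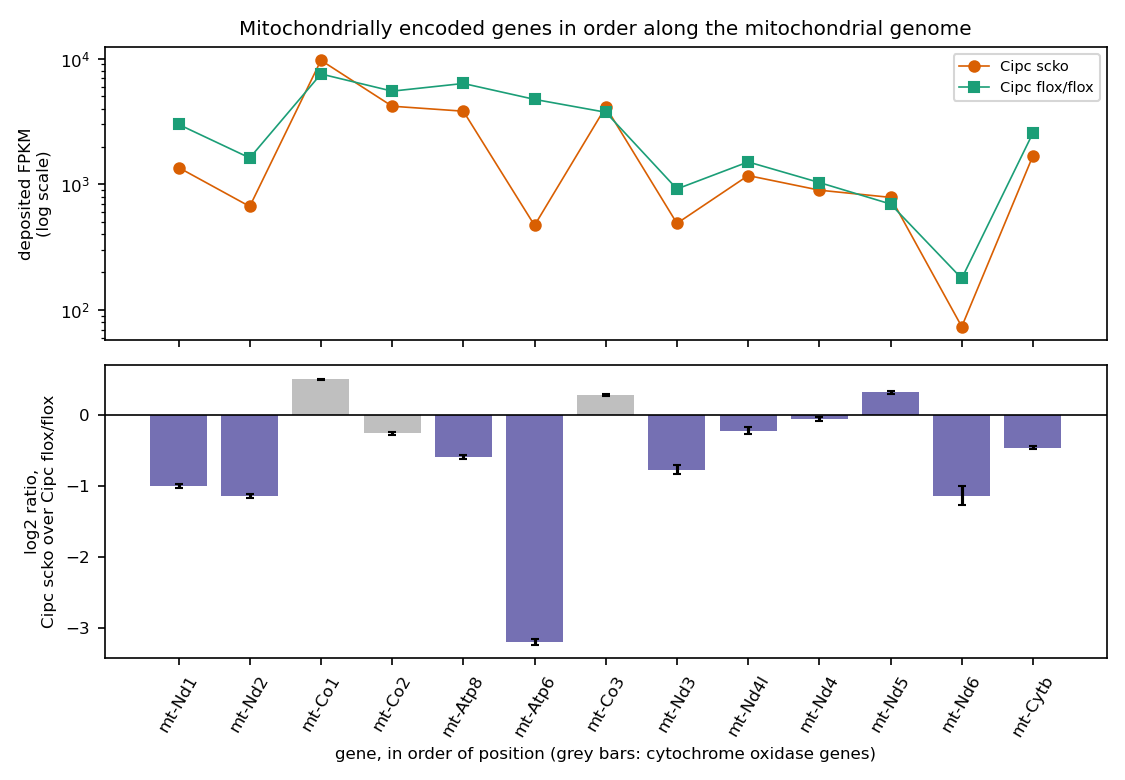
The 13 mitochondrial protein genes in order of position (x axis): deposited FPKM on a log scale in Cipc scko (circles) and Cipc flox/flox (squares) above, and the log2 ratio (Cipc scko over Cipc flox/flox cells) with 95% counting intervals below, where grey bars are the cytochrome oxidase genes. mt-Atp6 stands at -3.19 between mt-Atp8 at -0.60 and mt-Co3 at 0.27.

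The lowest ratio of all 77 members was that of mt-Atp6, which encodes the a subunit, the proton path of complex V. It had 5413 counts in Cipc scko cells against 52118 in Cipc flox/flox cells, a log2 ratio of -3.19 (-3.23 to -3.15), or 9.13-fold lower. Its neighbours did not share that value. mt-Atp8, the small membrane subunit read from the same messenger, had 13110 counts in Cipc scko cells against 20888 in Cipc flox/flox cells, a log2 ratio of -0.60, and mt-Co3 downstream stood at 0.27. The reading frames of mt-Atp8 and mt-Atp6 overlap by 43 bases, at chrM:7927-7969 on the plus strand of GRCm38. That overlap is shown because a read within it belongs to both genes; the capitals mark the start codon of mt-Atp6.
overlap of mt-Atp8 and mt-Atp6: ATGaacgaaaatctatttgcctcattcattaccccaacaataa

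A copy of mt-Atp6 also lies in the nuclear genome and carries the same letters. The annotated pseudogene Gm10925, at chr1:24613974-24614651 on the minus strand, matched mt-Atp6 at all 678 bases compared. The first 60 bases of both are shown to make that identity visible, with the overlap with mt-Atp8 in capitals.
mt-Atp6: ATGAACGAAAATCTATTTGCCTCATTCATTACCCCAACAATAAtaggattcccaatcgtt
Gm10925: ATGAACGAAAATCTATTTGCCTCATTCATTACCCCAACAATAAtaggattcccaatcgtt

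Reads from the body of the gene could therefore be assigned to either place. Gm10925 had 4688 counts in Cipc scko cells against 6961 in Cipc flox/flox cells, a log2 ratio of -0.49 (-0.55 to -0.44). It held 46.4% of the pair's counts in Cipc scko cells against 11.8% in Cipc flox/flox cells. Summed, the pair had 10101 counts in Cipc scko cells against 59079 in Cipc flox/flox cells, a log2 ratio of -2.47 (-2.50 to -2.44). That sum met the rule for a lower call, but it cannot recover reads that were assigned to neither place. Whether there were such reads was not tested. How the authors' counting split identical reads is not given in the sources used here.

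The neighbouring copies on chromosome 1 did not show such a shift. Gm28438 held 10.2% of the pooled counts with mt-Nd3 in Cipc scko cells against 8.996% in Cipc flox/flox cells. Gm10222 held 11.1% with mt-Nd4l in Cipc scko cells against 11.8% in Cipc flox/flox cells, and Gm28439 held 7.04% with mt-Nd4 in Cipc scko cells against 8.30% in Cipc flox/flox cells. The copies of mt-Nd4l and mt-Nd4 matched at every base compared (294 bases for mt-Nd4l, 876 for mt-Nd4, whose copy is partial). Gm28438 differed from mt-Nd3 by T3C alone, with positions counted from the first base of the gene and the mitochondrial base first. The first 33 bases of both are shown with that base in capitals.
mt-Nd3: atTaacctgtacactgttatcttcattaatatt
Gm28438: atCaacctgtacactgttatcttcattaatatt

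**Figure D5:**
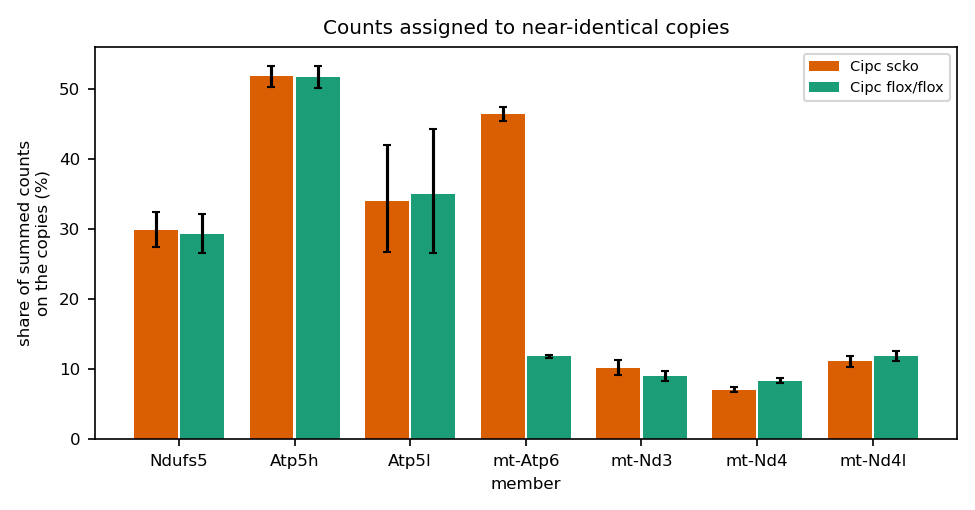
Share of the summed counts of a member and its near-identical copies that was assigned to the copies (y axis, percent) in Cipc scko and Cipc flox/flox, with exact binomial 95% intervals as bars. Only mt-Atp6 among the members plotted had a share that differed widely, 46.4% in Cipc scko cells against 11.8% in Cipc flox/flox cells.

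Without mt-Atp6 the other 9 mitochondrial members had a median of -0.60 and a summed log2 ratio of -0.50, against -0.78 with it. The complex IV genes of the same genome stood differently: mt-Co1 at 0.50, mt-Co2 at -0.26 and mt-Co3 at 0.27. All 13 mitochondrial genes together took 2.93% of the counts in Cipc scko cells against 3.39% in Cipc flox/flox cells, a log2 ratio of -0.07, which became 0.05 without mt-Atp6 (-0.08 by library totals). The lower sum of the mitochondrial members of complexes I, III and V thus stood beside a higher sum of the complex IV genes (0.33). Of the complex IV counts mt-Co1 alone held 251951 of 354490 in Cipc scko cells against 188217 of 296490 in Cipc flox/flox cells.

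Near-identical copies also bear on 18 nuclear members, 6 of which have a copy with counts of its own. Gm10250 on chromosome 15 held 51.7% of the pooled counts with Atp5h in both libraries. BC002163 held 29.8% with Ndufs5 in Cipc scko cells against 29.2% in Cipc flox/flox cells. Summing the copies left the log2 ratio of Atp5h at 0.21 and that of Ndufs5 at 0.43. Atp5l, with 9 copies, had 105 counts in Cipc scko cells against 78 in Cipc flox/flox cells, and Ndufb4, with 2 copies, had 57 in Cipc scko cells against 53 in Cipc flox/flox cells. How far their counts hold all reads of the message was not tested. The 49 nuclear members with no annotated copy had a median of 0.44 and included all 4 called ones.

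The nuclear members are spread over 19 chromosomes. The median of each chromosome was taken over genes past the filter with a mean of at least 5 CPM. Chromosome 15 stood low as a whole, with a median log2 ratio of -0.68 over 451 genes, and it carries Ndufb9 (-0.41), Cyc1 (-0.40), Ndufa6 (0.06) and Atp5g2 (0.13). All 4 lay above that median. Chromosome 7 stood at 0.36, and of its members Ndufa3 (1.35), Uqcrc2 (0.66) and Ndufc2 (0.42) lay above it. On the X chromosome, whose median was -0.18, Ndufa1 stood at 0.14 and Ndufb11 at 0.30. In all, 59 of 67 nuclear members lay above the median of their own chromosome, with a median difference of 0.42.

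Promoters were read because nuclear respiratory genes are known targets of NRF1 and of ETS family factors such as GABP. RefSeq windows on GRCm38.p6, from 250 bases before to 50 bases after the start, matched 55 of the 67 genes. The NRF1 core letters GCATGCGC, searched on both strands, were found in 9 of those 55 genes (16.4%), against 3.05% of 27025 genes. The ETS letters ACTTCCGG, also searched on both strands, were found in 4 genes (7.27%), against 4.31%. The 27025 genes compared in both searches were every gene with a window, whether or not counted here, while all 55 passed the count filter. Atp5h, Ndufs3, Uqcr11 and Uqcrh held the ETS letters. Atp5g2, Atp5k, Atp5l, Ndufa6, Ndufa8, Ndufa11, Sdhb, Uqcr11 and Uqcrc1 held the NRF1 letters. They had log2 ratios of -0.09 to 0.66 with a median of 0.45, and the 46 without them ran from -1.08 to 1.53 with a median of 0.40. The windows of Atp5k, Ndufa11 and Uqcrc1 are shown because the NRF1 letters, in capitals, overlap there on both strands, and that of Ndufa13, the most counted member called higher, is shown for contrast because it holds neither motif. A match is a description of letters, not of binding.
Atp5k, chr5:108434350-108434649, minus strand: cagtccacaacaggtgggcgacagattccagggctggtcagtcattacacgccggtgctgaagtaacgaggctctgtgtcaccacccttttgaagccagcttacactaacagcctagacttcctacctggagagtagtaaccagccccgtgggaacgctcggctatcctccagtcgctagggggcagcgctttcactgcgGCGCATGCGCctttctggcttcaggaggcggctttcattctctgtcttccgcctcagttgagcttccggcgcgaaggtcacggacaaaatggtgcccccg
Ndufa11, chr17:56717512-56717811, plus strand: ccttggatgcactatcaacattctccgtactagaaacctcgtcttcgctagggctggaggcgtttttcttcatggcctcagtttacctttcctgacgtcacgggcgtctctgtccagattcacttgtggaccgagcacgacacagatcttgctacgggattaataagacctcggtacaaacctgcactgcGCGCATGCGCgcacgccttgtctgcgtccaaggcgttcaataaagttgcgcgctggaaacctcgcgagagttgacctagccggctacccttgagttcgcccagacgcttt
Uqcrc1, chr9:108936398-108936697, plus strand: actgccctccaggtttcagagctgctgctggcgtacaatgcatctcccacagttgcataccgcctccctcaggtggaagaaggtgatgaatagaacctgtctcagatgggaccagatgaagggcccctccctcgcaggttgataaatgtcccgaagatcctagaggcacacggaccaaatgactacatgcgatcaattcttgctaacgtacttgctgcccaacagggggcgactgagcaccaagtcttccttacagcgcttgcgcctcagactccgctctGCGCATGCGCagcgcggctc
Ndufa13, chr8:69901971-69902270, minus strand: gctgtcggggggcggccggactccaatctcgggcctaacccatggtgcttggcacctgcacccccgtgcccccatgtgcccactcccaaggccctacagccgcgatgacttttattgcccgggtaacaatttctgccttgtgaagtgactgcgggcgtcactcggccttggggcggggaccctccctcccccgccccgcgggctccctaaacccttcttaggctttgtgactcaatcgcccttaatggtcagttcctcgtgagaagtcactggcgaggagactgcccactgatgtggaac

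Assembly factors build the complexes but are not part of them. As above, 21.2% of all genes were called higher and 15.9% lower, and the counts of each list of related genes stand beside those shares. Among 18 measured complex I factors 2 were higher (11.1%, below the share of all genes) and none was lower, with a median of 0.43. The 2 were Ndufaf3 at 1.76 and Foxred1 at 1.21. The lowest was Nubpl, which delivers iron-sulfur clusters, at -0.52. Of 15 factors for complexes II, III and V 6 were higher (40.0%) and none was lower, with a median of 0.75. The 6 were Lyrm7, Sdhaf1, Uqcc3 (1.60), Fmc1 (1.52), Atpaf1 and Uqcc1 (1.13). Lyrm7, which guards the Rieske protein before insertion, had 81 counts in Cipc scko cells against 15 in Cipc flox/flox cells, a log2 ratio of 2.47, and Tmem70, an ATP synthase factor, was the lowest at -0.57. Sdhaf1, which helps load iron-sulfur clusters into Sdhb, had 344 counts in Cipc scko cells against 80 in Cipc flox/flox cells (2.17). Atpaf1, an F1 chaperone, had 147 in Cipc scko cells against 65 in Cipc flox/flox cells (1.25). In this and the other lists of related genes, those named beside the highest and the lowest were chosen after their values were seen.

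Genes that copy and read the mitochondrial genome centred on equality. Among the 33 measured, 2 were higher (6.06%), 0 were lower and the median was 0.04. Polg2, the accessory subunit of the mitochondrial DNA polymerase, stood at 1.14, and the termination factor gene Mterf1b, with 27 counts in Cipc scko cells against 10 in Cipc flox/flox cells, at 1.46. Polrmt, the RNA polymerase that transcribes the mitochondrial members, had 550 counts in Cipc scko cells against 1149 in Cipc flox/flox cells, a log2 ratio of -0.99 just short of the limit. Tfam, which packs that DNA, had 454 counts in Cipc scko cells against 784 in Cipc flox/flox cells (-0.71). Lrpprc, which stabilizes its messengers, had 883 in Cipc scko cells against 1736 in Cipc flox/flox cells (-0.90). None of these 3 was called. Of the 33 genes 17 lay above 0 and 16 below it, and Tfb2m stood at 0.67, Tefm at 0.08 and Slirp at 0.08.

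Of 14 regulators of mitochondrial biogenesis that passed the filter 2 were higher (14.3%, against 21.2% of all genes) and 4 were lower (28.6%, against 15.9%), with a median of 0.05. Ppargc1a, the coactivator PGC-1 alpha, had 33 counts in Cipc scko cells against 77 in Cipc flox/flox cells, a log2 ratio of -1.13. Sirt1 (-1.95) was the lowest of them. Prkaa2, the muscle isoform of the AMP-activated kinase, had 107 counts in Cipc scko cells against 13 in Cipc flox/flox cells (3.07), while its paralogue Prkaa1 had 944 in Cipc scko cells against 2923 in Cipc flox/flox cells (-1.55). Esrrg, a nuclear receptor of oxidative muscle, had 51 counts in Cipc scko cells against 0 in Cipc flox/flox cells, a rise of at least 17.9-fold when that 0 is set to the floor of 3 counts. Nrf1, whose letters were searched above, had 398 counts in Cipc scko cells against 470 in Cipc flox/flox cells (-0.16).

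Of 15 genes for ubiquinone synthesis and cytochrome c, the mobile carriers between complexes, 4 were higher (26.7%, near the 21.2% of all genes) and none was lower, with a median of 0.03. Coq8a had 1167 counts in Cipc scko cells against 7 in Cipc flox/flox cells (7.36), and the others called were Coq8b (1.72), Coq9 (1.40) and Coq2 (1.39). Cycs, cytochrome c itself, had 89 counts in Cipc scko cells against 93 in Cipc flox/flox cells (0.01), and Pdss1 was the lowest at -0.49. Of 25 import, outer membrane and chaperone genes 1 was higher and 1 was lower, both below the shares of all genes, with a median of -0.08. The lower was the chaperonin Hspd1, with 2869 counts in Cipc scko cells against 8549 in Cipc flox/flox cells (-1.499), and the channel Vdac3 was the highest with at least 5 CPM, at 0.62. The import motor subunit Pam16, called higher at 1.03, had 45 counts in Cipc scko cells against 23 in Cipc flox/flox cells.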

How the data were processed

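Total RNA was sequenced from satellite cells as 1 library of Cipc scko and 1 of Cipc flox/flox mice. The authors deposited raw counts per Ensembl gene and FPKM per library, per the file headers. CASAVA, StringTie 1.3.0 and HISAT2 2.0.4 with the build GRCm38 are listed, without roles, per the submitters' processing notes. Annotation release, strand use and filters are not stated in the sources used here. The library totals limit precision to counting error.

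Symbols and exons came from GENCODE vM21. Counts were scaled by TMM (edgeR 4.0.16, R 4.3.3). The filter kept genes that reached 1 CPM in either library and 20 counts in the 2 together. Log2 ratios used a prior count of 0.5, with exact binomial (Clopper-Pearson) 95% intervals of the count split. The interval covers counting error only, since each group has 1 library. It treats every count as independent, and reads are not independent molecules, so it may be too narrow. A gene was called at 2-fold with an interval excluding equality. The rule was tested on simulated libraries that held counting error alone and changes larger than 2-fold. That test cannot show how the rule behaves under variation between animals or near the limit. BLAST+ 2.17.0 searched for near-identical copies, at 95% identity or more over at least 80% of the shorter sequence. Alternatives, including DESeq2 1.42.0 size factors, are in the closing section. The members and lists were chosen with earlier results of these data known. Named were every called member, each group's extremes, catalytic and core subunits, paralogue sets, members near the limit, those on chromosomes X, 7 and 15, and each list's extremes of at least 5 CPM. Other genes were named for their values or as background. The FPKM served for levels between genes. The values of 1 nuclear member are not reported here, though it is in the counts, medians and sums.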

Additional observations from a re-analysis of the deposited data

How the results depend on the processing

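No complex median or sum and no called member changed sign under the alternatives run for it, 16 set out at the start and 1 added. Of the 77 member ratios 7, all nuclear and within 0.13 of 0 by TMM, changed sign by library totals and in both FPKM forms (Sdhd, Atp5g2, Ndufa6, Ndufs1, Atp5j, Uqcrb and Uqcr11). Totals without the mitochondrial and top genes turned 5 of these, DESeq2 size factors turned Uqcr11, and the upper quartile turned Ndufs8 and Atp5j2. Counts of calls moved with the fold limit. At 1.5-fold 19 nuclear members were higher (29.0% of all genes) and 6 mitochondrial members were lower in place of 4 (25.8% of all genes). At 4-fold 1 nuclear member was higher (12.5% of all genes), 0 were lower and 1 mitochondrial member was lower (6.68% of all genes). With at least 5 CPM required 2 nuclear members were higher in place of 3, Ndufa4l2 being left out. Without members that have near-identical copies 2 mitochondrial members were lower, and with structural subunits only 0 nuclear members were lower. By upper quartile scaling mt-Nd1 stood at -0.96 and was no longer called. Scaling by library totals gave medians of 0.30, 0.41, 0.31 and 0.074 for nuclear complexes I, II, III and V and -0.82 for mitochondrial members, with summed ratios of 0.21, 0.36, 0.22, -0.25 and -0.91 in that order. FPKM with 0.1 added gave medians of 0.30, 0.41, 0.31, 0.074 and -0.82, and with 1 added 0.29, 0.40, 0.30, 0.074 and -0.82. Totals that left out the mitochondrial genes and the top 10 genes by count gave medians of 0.45 (II), 0.36 (III) and -0.77 (mitochondrial) and sums of 0.26, 0.41, 0.27, -0.20 and -0.87. DESeq2 size factors gave sums of 0.33 (I), -0.14 (V) and -0.80 (mitochondrial). The upper quartile gave a mitochondrial median of -0.64 and sums of 0.39, 0.54, 0.39, -0.075 and -0.74. Summing copies gave a mitochondrial sum of -0.76. Leaving out members with copies gave medians of 0.55 (III) and -0.80 (mitochondrial) and sums of -0.21 (V) and -0.69 (mitochondrial). Structural subunits alone gave a complex I sum of 0.39. Without members on chromosomes X and 15 the complex III median was 0.55 and the sums were 0.41 (I) and 0.51 (III). Leaving out mt-Atp6, an alternative chosen after seeing the data, gave a mitochondrial median of -0.60 and sum of -0.50.

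No paired analysis was possible because each group has 1 library, and for the same reason no library was left out. Variation between animals was not measured, so no ratio can be set against it, and differentiation state, sex and genotype cannot be told apart. Ndufa4l2, Ndufb4, Atp5l, Atp5s and Atp5g2 rest on under 110 counts in each library.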
